A study of Mus musculus with 16 samples.

Results

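GABP is a transcription factor of the Ets family that works as a complex of GABPα, the subunit whose Ets domain binds DNA around a GGAA core, and GABPβ, which carries the activating region. Naive T cells are quiescent, and signals from the T-cell receptor and CD28 make them switch on cytokine and receptor genes, grow, and build the machinery for DNA replication ahead of the first division. The question addressed here is how the loss of Gabpa changes the response of naive CD4+ T cells to that stimulation. For each gene, the change between 0 h and 18 h in KO cells minus the change between 0 h and 18 h in WT cells, called the response difference below, was computed on the log2 scale. No gene was selected: each entered through 1 probe set, which had to map to it alone and, where several did, had the highest average signal over 16 arrays. This gave 12393 of the 12393 genes of the series.

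KO mice carried the CD4Cre transgene with floxed Gabpa alleles (CD4CreGabpaf/f), and WT mice carried the floxed alleles without it (Gabpaf/f). Expression of Cre starts in double-positive thymocytes, so the deletion begins in the thymus, before cells become naive peripheral T cells. Naive CD25-CD62LhiCD44lo CD4+ cells were sorted from spleen and lymph nodes, and the sorted cells were divided between lysis at 0 h and an 18 h culture with IL-2 and antibodies to CD3 and CD28. There were 4 groups of 2 arrays: KO at 0 h, KO at 18 h, WT at 0 h and WT at 18 h. The labels call the 2 arrays of a group biological replicates but do not say how many mice each stands for or whether a number marks a shared sort, so p-values measure the spread between these arrays, and the ages of the mice are not given in the sources used here. The CD8+ arrays of the series, in the same 4 groups of 2, entered the fit for its estimate of the spread and serve as the closest comparison.

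The probe set for Gabpa read 9.79 and 9.67 in KO cells at 0 h and 9.70 and 9.78 in KO cells at 18 h, against 9.07 and 9.22 in WT cells at 0 h and 8.99 and 9.04 in WT cells at 18 h (log2 signal, replicate 1 then replicate 2, as in all lists of values below). All KO arrays lay above all WT arrays, and because the position of these probes relative to the deleted part is not given in the sources used here, the reading checks no label. Cd4 lay between 6.34 and 7.26 in the 8 CD4+ arrays, above its range of 4.78 to 5.59 in the CD8+ arrays. Cd8a read 7.56 and 6.85 in the WT replicate 1 arrays at 0 h and 18 h, and 4.42 to 5.57 in the other 6 CD4+ arrays, against 10.89 to 12.01 in CD8+ arrays. The 3′ minus 5′ signal of the actin and Gapdh control probes, which grows with RNA degradation and short amplification products, averaged 1.58 in WT replicate 1 at 0 h and 0.49 to 0.85 in the other CD4+ arrays. Counts of calls and medians of the division lists are also given without both WT replicate 1 arrays, and the other values with all arrays.

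Stimulation changed a large part of the transcriptome in both genotypes, and most of it in the same direction. A gene was called where limma gave a Benjamini-Hochberg adjusted p under 0.05 over all genes and a fold above 1.5. In KO cells 3004 genes were called (24.2%), of which 1371 rose and 1633 fell, and in WT cells 3249 were called (26.2%), of which 1509 rose and 1740 fell. Of these, 993 genes rose in both genotypes, which is 72.4% of the rises in KO cells and 65.8% of those in WT cells, and 1198 fell in both, which is 73.4% of the falls in KO cells and 68.9% of those in WT cells. The KO and WT responses correlated with r = 0.82 over the 12393 genes, a description only since genes of one array are not independent, and 18 genes were called in opposite directions.

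The response itself differed between genotypes for 175 genes, or 1.41% of all genes: 65 (0.524%) had a higher response in KO cells and 110 (0.888%) a lower one. The median response difference over all 12393 genes was 0.07, with quartiles of -0.18 and 0.29. Trip13, which encodes an ATPase that remodels proteins of the spindle checkpoint, lay at the low end with a response difference of -4.41 ± 0.45 (SE; adjusted p = 0.00145, limma). The other probe set of Trip13 had -2.62. The high end was held by Mmp13, a collagenase gene, at 4.54 ± 0.59 (adjusted p = 0.00423, limma). A response difference can arise at either time point: for 141 of the 175 genes KO and WT differed by a call at 18 h only, for 17 at 0 h only, for 12 at both and for 5 at neither. Over all genes, KO and WT differed by a call for 6.86% at 18 h and for 1.27% at 0 h, and these calls share arrays with the response difference. Where arrays of one genotype are said below to lie above those of the other, this describes the arrays and is not a call. Since these are bulk samples, fewer cells with a transcript and less transcript in each cell cannot be told apart.

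**Figure D1:**
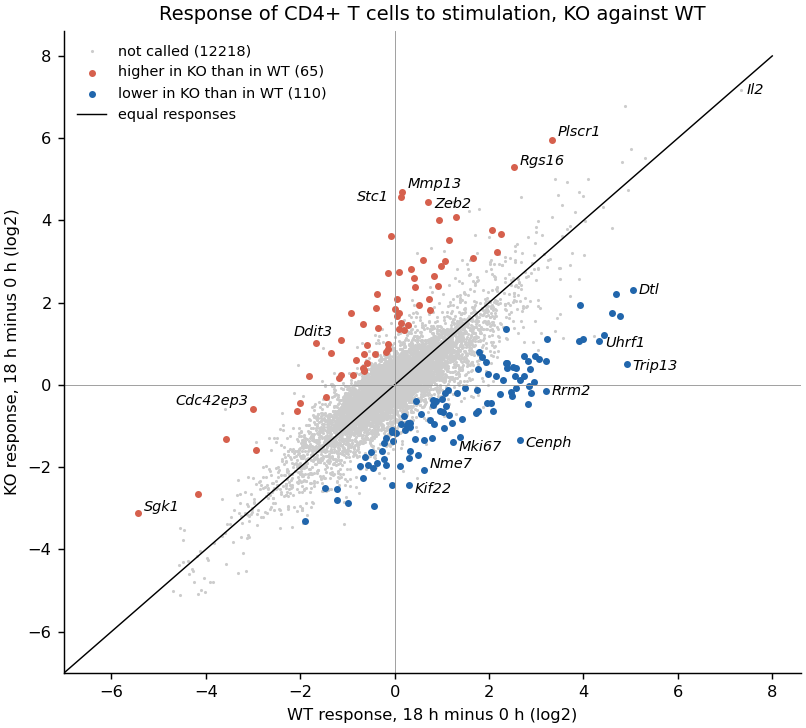
Response of each gene in KO CD4+ T cells (vertical axis, 18 h minus 0 h, log2) against its response in WT CD4+ T cells (horizontal axis, same units), with 65 genes of higher response in KO cells, 110 of lower response and the rest not called. The genes of lower response lie mostly to the right of 0, where WT cells raised them, and many of those of higher response sit in a column near a WT response of 0.

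The genes of lower response fell into 6 patterns. The largest held 46 genes that rose in WT cells and were not called in KO cells, among them Trip13, Rrm2 and Bub1. A further 13 rose in both genotypes but less in KO cells, led by Uhrf1, Cdc6 and Orc1, and 11 rose in WT cells and fell in KO cells, led by Cenph, Haspin and Mki67. The second largest pattern was of 31 genes that were not called in WT cells and fell in KO cells, led by Kif22, Nme7 and Scd2. Another 8 fell in both, more so in KO cells, and 1, Zpr1, was called in neither.

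Some genes that prepare DNA replication were induced less in KO cells. On a list of 23 genes of the MCM helicase and of replication origins, 8 had a lower response (Mcm3, Mcm4, Mcm6, Mcm7, Orc1, Cdc6, Gmnn and Topbp1) and 0 a higher one. Of all genes, 0.888% had a lower response and 0.524% a higher one. This list and those below were chosen with earlier results of these data known, so their counts are not independent evidence of a direction. The list's median response was 0.57 in KO cells and 1.84 in WT cells. It held 9 genes that rose in KO cells and 17 in WT cells, where 11.1% and 12.2% of all genes rose. Its median response difference was -1.21, against 0.07 over all genes, and 21 of the 23 estimates were below 0. Topbp1 was called higher in KO than in WT cells at 0 h, by 0.865, and its KO minus WT value of -0.384 at 18 h was not called.

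Mcm3, a subunit of the helicase that unwinds DNA at the fork, measured 8.18 and 8.26 at 0 h and 8.75 and 8.85 at 18 h in KO cells, against 8.21 and 7.90 at 0 h and 10.82 and 10.93 at 18 h in WT cells. At 0 h the genotypes overlapped, and at 18 h both KO arrays lay below both WT arrays. Its response difference was -2.24 ± 0.29 (SE; adjusted p = 0.00423, limma). The helicase subunits Mcm4, Mcm6 and Mcm7 started from similar levels in both genotypes and had response differences of -1.39, -1.0 and -1.38, while Mcm5 and Mcm2, subunits of the same ring, had -1.43 (adjusted p = 0.0555, limma) and -1.02 (adjusted p = 0.214) and were not called.

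Cdc6, which loads the helicase at origins, read 4.57 and 4.50 at 0 h and 5.93 and 5.57 at 18 h in KO cells, against 3.46 and 4.25 at 0 h and 8.52 and 8.08 at 18 h in WT cells. KO arrays lay above WT arrays at 0 h, a gap of 0.68 that was not called (adjusted p = 0.59, limma), and below them at 18 h. The response difference was -3.22 ± 0.54 (adjusted p = 0.0141, limma). The largest subunit of the origin recognition complex, Orc1, had a response difference of -3.10 ± 0.56 (adjusted p = 0.0197, limma). Both Cdc6 and Orc1 still rose in KO cells, by 1.22 and 1.67, against 4.44 and 4.77 in WT cells.

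The calls on this list varied with the arrays used, the estimates less so. Leaving out 1 array at a time gave 1 to 10 genes of the MCM and origin list with a lower response, and 1 when KO replicate 1 at 0 h, KO replicate 2 at 0 h, WT replicate 1 at 18 h or KO replicate 2 at 18 h was left out. The list's median stayed between -1.39 and -1.10 in these 16 runs. Mcm3 was called in all 16.

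At the replication fork, 4 of 27 genes on the list of DNA polymerases and fork factors had a lower response and 0 a higher one, against 0.888% and 0.524% of all genes. The median response difference of the list was -0.93, with median responses of 0.48 in KO cells and 1.43 in WT cells. Those called were Pola1, the catalytic subunit of the primase-bound polymerase, at -2.04 ± 0.34 (adjusted p = 0.0131, limma), Pole, the leading-strand polymerase, at -2.11 ± 0.39 (adjusted p = 0.0224), Lig1, the ligase that joins lagging-strand fragments, at -1.85 ± 0.30 (adjusted p = 0.0119), and Dna2, a nuclease that trims them, at -2.49 ± 0.55 (adjusted p = 0.0488). Pcna, the sliding clamp, rose by 1.08 in KO cells and by 1.36 in WT cells, and its response difference of -0.28 ± 0.24 was not called. The count on this list ran from 0 to 9 when 1 array was left out, and was 0 without WT replicate 1 at 18 h or KO replicate 2 at 18 h.

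Rrm2, the small subunit of the ribonucleotide reductase that makes deoxynucleotides, read 7.91 and 7.26 at 0 h and 7.64 and 7.24 at 18 h in KO cells, against 6.49 and 6.63 at 0 h and 10.05 and 9.49 at 18 h in WT cells. KO arrays lay above WT arrays at 0 h, a gap of 1.03 that was not called (adjusted p = 0.264, limma), and below them at 18 h. The response difference of Rrm2 was -3.36 ± 0.50 (adjusted p = 0.00709, limma). It was the 1 gene called on a list of 18 for thymidylate, pyrimidine and dNTP synthesis, where 0.888% of all genes had a lower response. The list's median response difference was -0.29. Tyms, thymidylate synthase, followed at -1.80 ± 0.41 and missed the threshold (adjusted p = 0.0521, limma).

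Chromatin copying gave 4 calls of 16, all lower (Asf1b, Uhrf1, Hells and Supt16), against 0.888% of all genes with a lower response. The median response difference of the list was -0.76. Uhrf1, which binds half-methylated DNA and brings in the maintenance methyltransferase, measured 6.59 and 6.35 at 0 h and 7.64 and 7.42 at 18 h in KO cells, against 6.02 and 5.68 at 0 h and 10.32 and 10.04 at 18 h in WT cells. It rose in both genotypes, and at 18 h the KO arrays were lower than the WT arrays, for a response difference of -3.27 ± 0.46 (adjusted p = 0.00554, limma). Hells, a chromatin remodeller, had -1.98 ± 0.33 (adjusted p = 0.013, limma). The count on this list was 1 to 5 with 1 array left out, and 1 without WT replicate 2 at 0 h, KO replicate 1 at 0 h, WT replicate 1 at 18 h or KO replicate 2 at 18 h, and Uhrf1 was called in all 16 runs.

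Dtl, the receptor subunit of a ubiquitin ligase that removes Cdt1 in S phase, read 5.11 and 4.43 at 0 h and 7.29 and 6.87 at 18 h in KO cells, against 3.86 and 3.77 at 0 h and 9.01 and 8.70 at 18 h in WT cells. Induction of Dtl was strong in both genotypes. KO arrays lay above WT arrays at 0 h, by 0.96 with no call (adjusted p = 0.268, limma), and below them at 18 h. Its response difference was -2.73 ± 0.47 (adjusted p = 0.015, limma). Among 26 G1 and S phase cyclins, kinases and E2F factors, Ccne2 and Ccna2, cyclins of S phase entry, had lower responses of -2.42 ± 0.53 and -2.65 ± 0.54, and Cdkn1a, described below, a higher one. Over all genes, a lower response was called for 0.888% and a higher one for 0.524%. The median response difference of these 26 genes was -0.34, and 0 to 3 of them had a lower response when 1 array was left out, with 0 without any 1 CD4+ array except WT replicate 2 at 18 h or without a CD8+ KO array at 0 h.

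**Figure D2:**
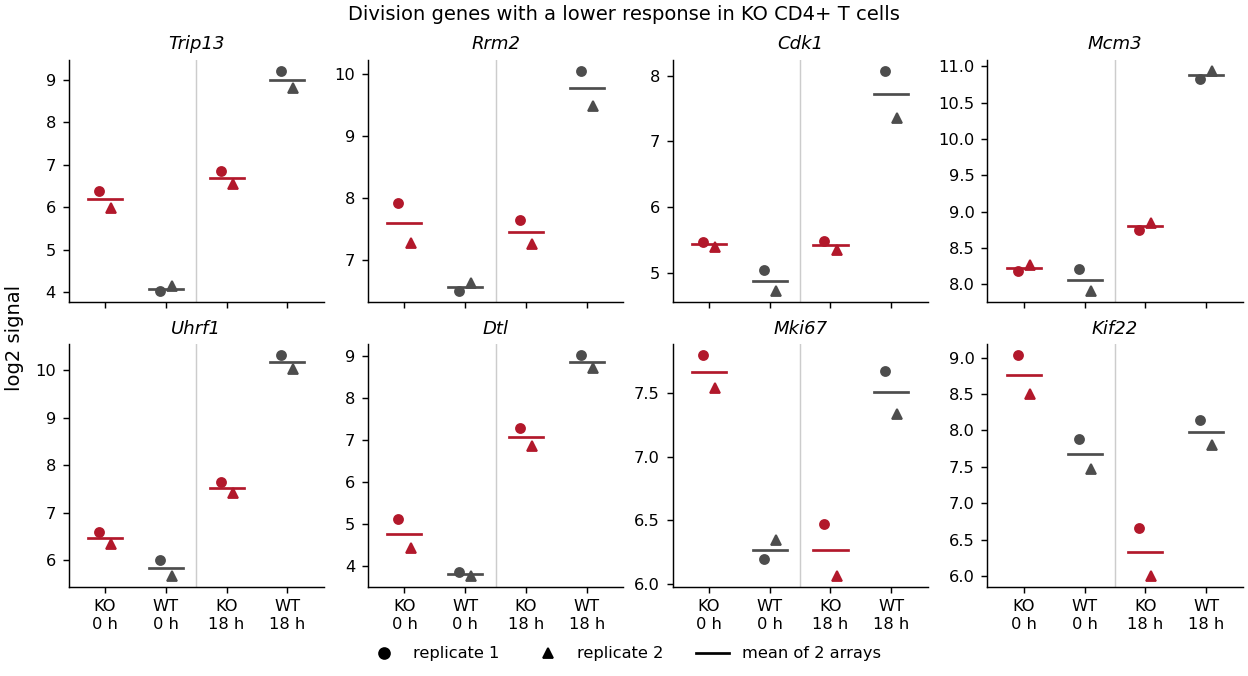
Log2 signal of 8 division genes in each CD4+ array, by genotype and time, with circles for replicate 1, triangles for replicate 2 and bars for the mean of 2 arrays; each panel has its own vertical range. At 18 h the KO arrays lie below the WT arrays in every panel, by 2.31 for Trip13 and 1.24 for Mki67, and at 0 h the KO arrays lie above the WT arrays in all panels but that of Mcm3. Among these genes the difference at 0 h was called for Trip13 and Kif22 only.

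On the list of 30 mitosis genes, 10 had a lower response (Mki67, Top2a, Cdk1, Cdc20, Aurkb, Bub1, Ttk, Birc5, Cenpf and Nuf2) and 0 a higher one, against 0.888% and 0.524% of all genes. In KO cells 0 of the 30 rose and 8 fell, where 11.1% of all genes rose and 13.2% fell, while in WT cells 17 rose and 2 fell, where 12.2% of all genes rose and 14.0% fell. The median response was -0.36 in KO cells and 1.23 in WT cells, and the median response difference was -1.44, with 27 of 30 estimates below 0. Cenpf was called higher in KO than in WT cells at 0 h, with no call between genotypes at 18 h.

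Cdk1, the kinase that drives entry into mitosis, measured 5.47 and 5.39 at 0 h and 5.49 and 5.34 at 18 h in KO cells, against 5.04 and 4.71 at 0 h and 8.07 and 7.36 at 18 h in WT cells. The 4 KO arrays lay close together, and both WT arrays at 18 h lay above them. Its response difference was -2.86 ± 0.40 (adjusted p = 0.00554, limma). Aurkb, a kinase of chromosome segregation and cytokinesis, had -2.73 ± 0.40 (adjusted p = 0.00659, limma), and Bub1, a spindle checkpoint kinase, had -3.30 ± 0.52 (adjusted p = 0.01), with its probe sets ranging from -3.30 to -0.31.

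Mki67, the gene of the proliferation marker Ki-67, read 7.80 and 7.54 at 0 h and 6.47 and 6.06 at 18 h in KO cells, against 6.19 and 6.34 at 0 h and 7.67 and 7.34 at 18 h in WT cells. The order of the genotypes turned between 0 h and 18 h with no overlap at either time, but the gap of 1.40 at 0 h was not called (adjusted p = 0.0855, limma). Mki67 fell by 1.40 in KO cells, rose by 1.24 in WT cells, and its response difference was -2.64 ± 0.48 (adjusted p = 0.0218, limma). Top2a, topoisomerase II, had -2.39 on the probe set used and 0.01 on its other probe set.

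With 1 array left out, 2 to 10 mitosis genes had a lower response, and 2 when WT replicate 1 at 0 h, KO replicate 1 at 0 h or WT replicate 1 at 18 h was left out. The median of the list lay between -1.59 and -1.08 in these runs. Cdk1 and Aurkb were called in all 16, and the Mki67 call was lost in 6 of them.

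DNA repair by homologous recombination and the Fanconi pathway, which acts at stalled forks, gave 4 calls of 14, all lower (Brca1, Rad54l, Exo1 and Eme1), against 0.888% of all genes with a lower response. The median response difference of the list was -0.96. In KO cells 0 of these 14 genes rose, and in WT cells 9 did, where 11.1% and 12.2% of all genes rose. Eme1, partner of the nuclease Mus81, measured 7.50 and 7.48 at 0 h and 6.48 and 6.40 at 18 h in KO cells, against 4.27 and 4.41 at 0 h and 5.40 and 5.39 at 18 h in WT cells. KO cells were higher at both times and the gap narrowed with stimulation, for a response difference of -2.10 ± 0.32 (adjusted p = 0.0078, limma). The list held 1 to 6 lower calls with 1 array left out, and 1 without any single CD4+ array except WT replicate 2 at 18 h, Eme1 being called in all 16 runs, and the probe sets of Brca1 ranged from -2.14 to 0.26.

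Some division genes were already higher in unstimulated KO cells. Trip13 measured 6.39 and 5.98 at 0 h and 6.86 and 6.54 at 18 h in KO cells, against 4.02 and 4.15 at 0 h and 9.21 and 8.81 at 18 h in WT cells. The KO arrays were 2.10 higher at 0 h and 2.31 lower at 18 h, and neither time showed overlap. Cenph, a centromere protein, measured 6.98 and 6.68 at 0 h and 5.49 and 5.48 at 18 h in KO cells, against 4.25 and 3.91 at 0 h and 7.19 and 6.27 at 18 h in WT cells. It fell by 1.35 in KO cells and rose by 2.65 in WT cells, a response difference of -4.00 ± 0.46 (adjusted p = 0.00252, limma). In all, 5 of the 110 genes of lower response were called higher at 0 h and lower at 18 h, 12 were called higher in KO cells at 0 h with no call at 18 h, and 83 were called lower at 18 h with no call at 0 h, where over all genes 0.533% were higher at 0 h and 4.14% lower at 18 h. The 110 genes were chosen on the difference between these times in the same arrays, so an excess of such calls is built in. On the whole lists, the median KO minus WT value at 0 h was 0.165 for MCM and origin genes and 0.49 for mitosis genes. Trip13 and Cenph stayed called in all 16 runs with 1 array left out and when both WT replicate 1 arrays were left out.

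A separate set of 31 genes was not called in WT cells and fell in KO cells. Kif22, a chromosome-binding kinesin, measured 9.03 and 8.50 at 0 h and 6.66 and 6.01 at 18 h in KO cells, against 7.89 and 7.47 at 0 h and 8.14 and 7.80 at 18 h in WT cells. KO cells passed from the higher to the lower side of WT cells, with a fall by 2.43 and a response difference of -2.73 ± 0.34 (adjusted p = 0.00353, limma). Nme7, of the nucleoside diphosphate kinase family, measured 6.23 and 5.87 at 0 h and 4.19 and 3.75 at 18 h in KO cells, against 6.81 and 6.42 at 0 h and 7.38 and 7.10 at 18 h in WT cells. It was lower in KO arrays at both times, and more so at 18 h, with a response difference of -2.71 ± 0.41 (adjusted p = 0.008, limma).

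Mrpl27, a protein of the mitochondrial ribosome, read 8.28 and 7.99 at 0 h and 6.83 and 6.01 at 18 h in KO cells, against 9.0 and 8.49 at 0 h and 9.48 and 8.98 at 18 h in WT cells. KO arrays were lower throughout, and the response difference was -2.20 ± 0.44 (adjusted p = 0.0317, limma). It was the 1 gene called among 73 of the mitochondrial ribosome, where 1.41% of all genes were called. The median response difference of these 73 was -0.27. Gpx1, which reduces peroxides with glutathione, read 10.92 and 10.77 at 0 h and 9.37 and 8.76 at 18 h in KO cells, against 11.04 and 10.65 at 0 h and 11.25 and 11.05 at 18 h in WT cells. The genotypes overlapped at 0 h and were apart at 18 h, with a response difference of -2.09 ± 0.35 (adjusted p = 0.0135, limma). Scd2, a desaturase that makes monounsaturated fatty acids, fell by 2.94 in KO cells with a response difference of -2.51 ± 0.49 (adjusted p = 0.0283, limma).

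Nfs1, the cysteine desulfurase of iron-sulfur cluster assembly, Gstp1, a glutathione transferase, and Rala, a small GTPase of the Ras family, belong to the same set, with response differences of -1.76, -1.38 and -1.75. These 3, together with Kif22, were called in all 16 runs with 1 array left out. The call of Nme7 was lost in 3 of the runs, that of Gpx1 in 4, that of Scd2 in 6 and that of Mrpl27 in 8, with adjusted p up to 0.054 for Nme7 and 0.159 for Mrpl27 (limma). The probe sets of Rala ranged from -1.75 to -0.09 and those of Scd2 from -2.51 to -0.24.

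The promoters of genes with a lower response were searched for letters that Ets factors and E2F factors, which drive genes of S phase, are known to bind. The window ran from 250 bases before to 50 after the start in RefSeq (GRCm38.p6), and both strands were read. It held the Ets letters CCGGAAGT (ACTTCCGG on the other strand) in 23 of 90 matched genes of lower response (25.6%), in 5 of 54 of higher response (9.26%), in 7.23% of the 9887 matched genes tested, and in 4.31% of all promoters in the table. The shorter CCGGAA, which reads TTCCGG on the other strand and is part of those letters, stood in 58.9% of the genes of lower response, 24.1% of those of higher response, 26.1% of the genes tested and 16.7% of all promoters. The E2F letters were TTCCCGC, which reads GCGGGAA on the other strand, and TTGGCGC, which reads GCGCCAA there, and either of them stood in 33.3% of the genes of lower response, 20.4% of those of higher response, 12.6% of the genes tested and 7.79% of all promoters.

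The patterns of response differed in which letters they held. Of the 24 matched genes that fell in KO cells with no call in WT cells, 33.3% held CCGGAAGT and 12.5% the E2F letters. Of the 59 matched genes that rose in WT cells and had a lower response in KO cells, 20.3% held CCGGAAGT and 45.8% the E2F letters, against 13.0% and 20.6% of the 1249 matched genes that rose in WT cells. These shares describe letters in a window and were not tested, and a match is not evidence of binding. The 4 promoters below, chosen after their letters and values were seen, show 2 genes that fell in KO cells (Nme7 and Mrpl27) and 2 whose induction was smaller (Trip13 and Pola1). Each is the 250 bases before the start on the strand of the gene, with matches to the 3 sets of letters in capitals.
Nme7, chr1:164307422-164307671, plus strand: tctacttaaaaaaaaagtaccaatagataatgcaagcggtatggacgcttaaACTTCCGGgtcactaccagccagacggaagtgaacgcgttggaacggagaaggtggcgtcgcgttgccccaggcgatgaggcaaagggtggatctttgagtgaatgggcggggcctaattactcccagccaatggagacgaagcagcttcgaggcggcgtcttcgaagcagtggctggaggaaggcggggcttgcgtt
Mrpl27, chr11:94653541-94653790, plus strand: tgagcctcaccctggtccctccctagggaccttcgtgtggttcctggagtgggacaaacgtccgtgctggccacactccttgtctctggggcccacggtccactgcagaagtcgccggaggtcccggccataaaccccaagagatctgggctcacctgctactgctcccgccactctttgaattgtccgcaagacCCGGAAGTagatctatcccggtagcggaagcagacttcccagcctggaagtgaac
Trip13, chr13:73937768-73938017, minus strand: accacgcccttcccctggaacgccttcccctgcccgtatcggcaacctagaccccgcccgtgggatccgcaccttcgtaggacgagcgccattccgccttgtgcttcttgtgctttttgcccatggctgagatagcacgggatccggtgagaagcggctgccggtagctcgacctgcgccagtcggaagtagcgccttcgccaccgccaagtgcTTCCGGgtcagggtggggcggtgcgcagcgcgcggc
Pola1, chrX:93632156-93632405, minus strand: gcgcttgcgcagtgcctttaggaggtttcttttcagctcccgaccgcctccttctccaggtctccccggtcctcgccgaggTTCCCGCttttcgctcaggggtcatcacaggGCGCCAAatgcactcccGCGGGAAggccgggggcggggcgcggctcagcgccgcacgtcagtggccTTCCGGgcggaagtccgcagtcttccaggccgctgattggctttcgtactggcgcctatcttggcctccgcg
The Ets letters begin 198 bases before the start in Nme7, 55 in Mrpl27, 36 in Trip13 and 72 in Pola1. The site of Mrpl27 also lies in the window of Eme1, on the opposite strand, and Prelid1 and Rab24 share a site in the same way. Such sites enter the shares once for each gene. Eme1 was higher in KO cells at both times, where Mrpl27 was lower. Pola1 also has 3 E2F matches in the stretch shown, which begin 169, 138 and 121 bases before its start, and 1 more that begins 15 bases after it. Mcm3, Mcm6 and Cdk1 held E2F letters in their windows and no CCGGAAGT, and Cdk1 also held the shorter CCGGAA, 41 bases after its start. The study, however, reports GABPα binding at the Mcm3 promoter by ChIP-seq and ChIP-qPCR, with conserved GABP motifs there. The exact letters sought in this window did not find those motifs, so missing letters do not show missing binding.

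Among the 65 genes of higher response, the largest pattern was of 29 genes that rose in KO cells and were not called in WT cells. Mmp13, a secreted collagenase, measured 2.32 and 1.94 at 0 h and 6.80 and 6.85 at 18 h in KO cells, against 2.29 and 2.14 at 0 h and 2.34 and 2.41 at 18 h in WT cells. Both KO arrays at 18 h stood far above the other 6. Its response difference was 4.54 ± 0.59 (adjusted p = 0.00423, limma).

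Stc1, which encodes the secreted glycoprotein stanniocalcin-1, measured 3.96 and 3.84 at 0 h and 7.75 and 9.17 at 18 h in KO cells, against 4.09 and 3.74 at 0 h and 3.99 and 4.11 at 18 h in WT cells. The KO arrays at 18 h differed from each other more than those of other groups and were both above all others. Its response difference was 4.42 ± 0.58 (adjusted p = 0.00491, limma) on the probe set used and 0.17 on the other probe set of the gene. Il1a, the cytokine interleukin-1α, measured 2.98 and 2.82 at 0 h and 6.28 and 6.77 at 18 h in KO cells, against 2.67 and 3.09 at 0 h and 2.60 and 3.0 at 18 h in WT cells. Again the KO arrays at 18 h stood alone, with a response difference of 3.71 ± 0.29 (adjusted p = 0.000212, limma).

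Zeb2, a zinc finger repressor known for its part in the terminal differentiation of effector T cells, measured 3.18 and 2.92 at 0 h and 7.52 and 7.48 at 18 h in KO cells, against 2.71 and 2.97 at 0 h and 3.57 and 3.53 at 18 h in WT cells. The rise by 4.45 in KO cells compared with 0.71 in WT cells, which was not called, and the response difference was 3.74 ± 0.45 (adjusted p = 0.00307, limma). Id3, an inhibitor of E-protein transcription factors, measured 8.30 and 8.37 at 0 h and 10.25 and 10.61 at 18 h in KO cells, against 9.05 and 8.98 at 0 h and 9.10 and 9.04 at 18 h in WT cells. KO arrays were below WT arrays at 0 h and above them at 18 h, with a response difference of 2.04 ± 0.29 (adjusted p = 0.00582, limma). These were the 2 genes called among 15 effector T-cell transcription factors, where 0.524% of all genes had a higher response. The median response difference of these 15 was 0.44.

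Cd70, the ligand of CD27, measured 2.66 and 2.90 at 0 h and 5.87 and 5.76 at 18 h in KO cells, against 2.84 and 2.71 at 0 h and 3.38 and 3.38 at 18 h in WT cells. The response difference was 2.43 ± 0.34 (adjusted p = 0.00554, limma), with the KO arrays at 18 h above all others. Traf1, an adaptor of TNF receptors and itself a target of NF-kB, rose by 1.67 in KO cells with a WT response of 0.04, a response difference of 1.63 ± 0.28 (adjusted p = 0.0151, limma). Fasl, the death ligand, had 1.85 ± 0.41 (adjusted p = 0.0467, limma). Ndrg1, a stress-responsive gene, had 2.58 ± 0.30 (adjusted p = 0.00252, limma). A similar value, 2.18 ± 0.31 (adjusted p = 0.00582, limma), was found for Spry2, a feedback inhibitor of the Ras pathway.

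Another 14 genes rose in both genotypes and more in KO cells. Rgs16, which shuts off G-protein signaling, measured 5.56 and 5.79 at 0 h and 10.77 and 11.20 at 18 h in KO cells, against 5.85 and 5.74 at 0 h and 8.58 and 8.07 at 18 h in WT cells. The genotypes overlapped at 0 h, and the KO arrays were the higher ones at 18 h, with a response difference of 2.78 ± 0.31 (adjusted p = 0.00252, limma). Plscr1, an interferon-inducible scramblase gene, had 2.62 ± 0.51 (adjusted p = 0.0283, limma). Egr2, an early factor downstream of the T-cell receptor, rose by 3.22 in KO cells and by 2.16 in WT cells, a response difference of 1.06 ± 0.23 (adjusted p = 0.0467, limma).

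**Figure D3:**
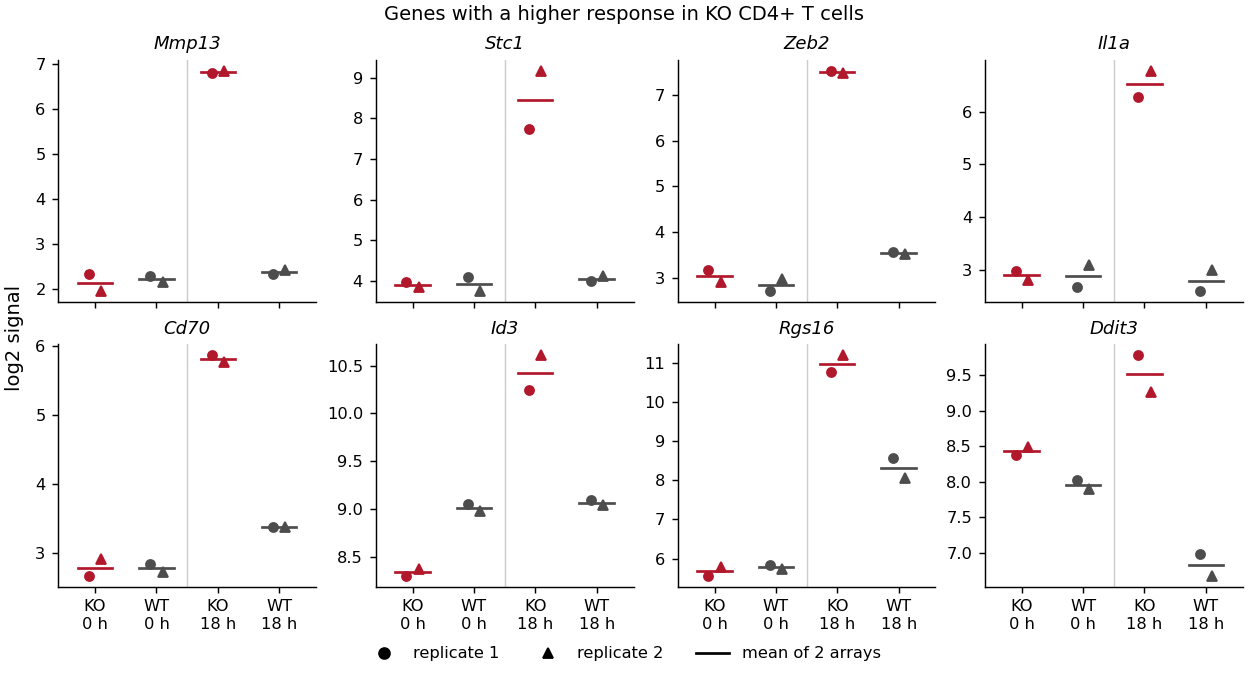
Log2 signal of 8 genes of higher response in each CD4+ array, by genotype and time, with circles for replicate 1, triangles for replicate 2 and bars for the mean of 2 arrays; each panel has its own vertical range. At 18 h both KO arrays lie above both WT arrays in every panel, by 4.45 for Mmp13 and 1.36 for Id3.

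The remaining genes of higher response fell in WT cells. There were 11 that fell in WT cells with no call in KO cells, 5 that fell less in KO cells, 5 that fell in WT cells and rose in KO cells, and 1, Sdf2, called in neither. Cdc42ep3, an effector of the GTPase Cdc42, measured 6.90 and 6.41 at 0 h and 6.10 and 6.03 at 18 h in KO cells, against 7.96 and 7.45 at 0 h and 4.88 and 4.52 at 18 h in WT cells. KO arrays were lower at 0 h and higher at 18 h, for a response difference of 2.41 ± 0.34 (adjusted p = 0.00582, limma) on the probe set used and 1.29 on the other probe set. Parp8, of the PARP family, had 2.02 ± 0.23 (adjusted p = 0.00252, limma), and Ramp3, an accessory protein of peptide hormone receptors, had 2.69 ± 0.37 (adjusted p = 0.00554). Sgk1, a kinase downstream of PI3K, fell by 3.12 in KO cells and by 5.44 in WT cells.

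Ddit3, which encodes the stress factor CHOP, measured 8.38 and 8.49 at 0 h and 9.78 and 9.27 at 18 h in KO cells, against 8.02 and 7.89 at 0 h and 6.98 and 6.67 at 18 h in WT cells. KO arrays were above WT arrays at both times and the gap widened, with a rise by 1.09 in KO cells, a fall by 1.13 in WT cells and a response difference of 2.22 ± 0.31 (adjusted p = 0.00554, limma). On a list of 38 ER stress and integrated stress genes, Ddit3 and Pdia5, a disulfide isomerase, had higher responses and Sdf2l1, a partner of ER chaperones, had a lower one of -1.85 ± 0.22 (adjusted p = 0.00307, limma). Over all genes, 0.524% had a higher response and 0.888% a lower one. The median of that list was 0.13, close to the 0.07 of all genes. Trib3, a pseudokinase induced by CHOP, had 2.72 ± 0.68 and was not called (adjusted p = 0.083, limma), and neither was Atf4, the factor at the head of the integrated stress response, at 0.72 ± 0.33 (adjusted p = 0.439).

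Cdkn1a, which encodes the cyclin-dependent kinase inhibitor p21, measured 5.31 and 5.32 at 0 h and 8.98 and 9.20 at 18 h in KO cells, against 5.22 and 4.91 at 0 h and 7.39 and 6.88 at 18 h in WT cells. It rose in both genotypes, and the KO arrays were above the WT arrays at 18 h, with a response difference of 1.71 ± 0.37 (adjusted p = 0.0456, limma). On a list of 27 p53 targets and apoptosis genes, Cdkn1a and Blcap had higher responses and 0 had lower ones, against 0.524% and 0.888% of all genes. The list's median response difference was 0.47, and it held 0 to 2 higher calls with 1 array left out. The call of Cdkn1a was lost in 12 of the 16 runs with 1 array left out, with adjusted p up to 0.21 (limma).

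In the set of genes of higher response described above, Mmp13, Stc1, Zeb2, Il1a, Id3, Cd70, Ndrg1, Spry2, Rgs16, Cdc42ep3, Parp8, Ramp3 and Ddit3 were called in all 16 runs. Plscr1 lost its call in 6 of the runs, Traf1 in 5, Egr2 in 12, Sgk1 in 8 and Fasl in 14.

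Most lists of the activation program held 0 calls, a share near the 1.41% of all genes. Of 18 activation receptors, 24 cytokines and chemokines, 23 genes of cytokine receptor signaling, 18 naive T-cell genes and targets of Foxo1, 39 genes of Myc and ribosome assembly, 36 proteasome subunits and 17 glycolytic enzymes, 0 passed the test of the response difference. A missing call does not show equal responses, since the median SE over all genes was 0.29 and some of these genes varied more. Il2, the growth factor of activated T cells, measured 6.51 and 5.09 at 0 h and 12.62 and 13.31 at 18 h in KO cells, against 3.76 and 4.43 at 0 h and 11.97 and 10.92 at 18 h in WT cells. It rose by 7.17 in KO cells and by 7.35 in WT cells, and its response difference of -0.18 ± 1.01 is too wide to bound the change closely. Il2ra, a chain of its receptor, rose by 4.73 in KO cells and by 4.95 in WT cells (difference -0.22 ± 0.73), and Myc, which drives growth, rose by 2.32 and by 1.87 (difference 0.44 ± 0.29).

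Median responses of these lists ran in the same direction in both genotypes. Activation receptors had a median response of 2.43 in KO cells and 1.92 in WT cells, genes of Myc and ribosome assembly 1.37 and 1.60, and naive T-cell and Foxo1 genes -1.19 and -1.70. Il7r, the receptor of the survival cytokine of naive cells, fell by 4.31 in KO cells and by 4.49 in WT cells.

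Metabolic and mitochondrial lists also held few calls, with medians mostly below that of all genes. The 79 genes of the respiratory chain and ATP synthase had 0 calls and a median response difference of -0.25, the 50 genes for mitochondrial protein import, translation and quality control had 0 and -0.21, and the 23 genes of the TCA cycle had 0 and -0.23. Of 26 tRNA synthetases, Kars, the lysine enzyme, had a lower response of -1.57 ± 0.28 (adjusted p = 0.0178, limma), where 0.888% of all genes had a lower one. Sterol synthesis had 0 calls of 19 and a median response difference of -0.82, with median responses of 0.33 in KO cells and 1.19 in WT cells and 18 of 19 estimates below 0. The interferon response list had 0 calls of 24 and a median of -0.89, with 23 of 24 estimates below 0. Its median responses were -2.20 in KO cells and -1.61 in WT cells, and its median KO minus WT value was 0.587 at 0 h and -0.228 at 18 h.

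The remaining lists held 0 or 1 call each, where 1.41% of all genes were called. Early response factors had 1 call of 24, Egr2, and a median response difference of 0.53, NF-kB factors and inhibitors 1 of 14, Traf1, and 0.52, and cytotoxic genes 1 of 11, Fasl, and 0.56. Cytosolic chaperones had 1 of 31, Hspa1b, an inducible heat shock protein, which had a higher response, and a median of -0.21, while redox defence had 1 of 22, Gpx1, and 0.01. With 0 calls, the medians were 0.33 for 15 amino acid and nucleoside transporters, -0.41 for 14 genes of one-carbon and purine synthesis, -0.40 for the cytokine receptor list, 0.18 for 18 Ets family factors and 0.16 for 5 Gimap GTPases.

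**Figure D4:**
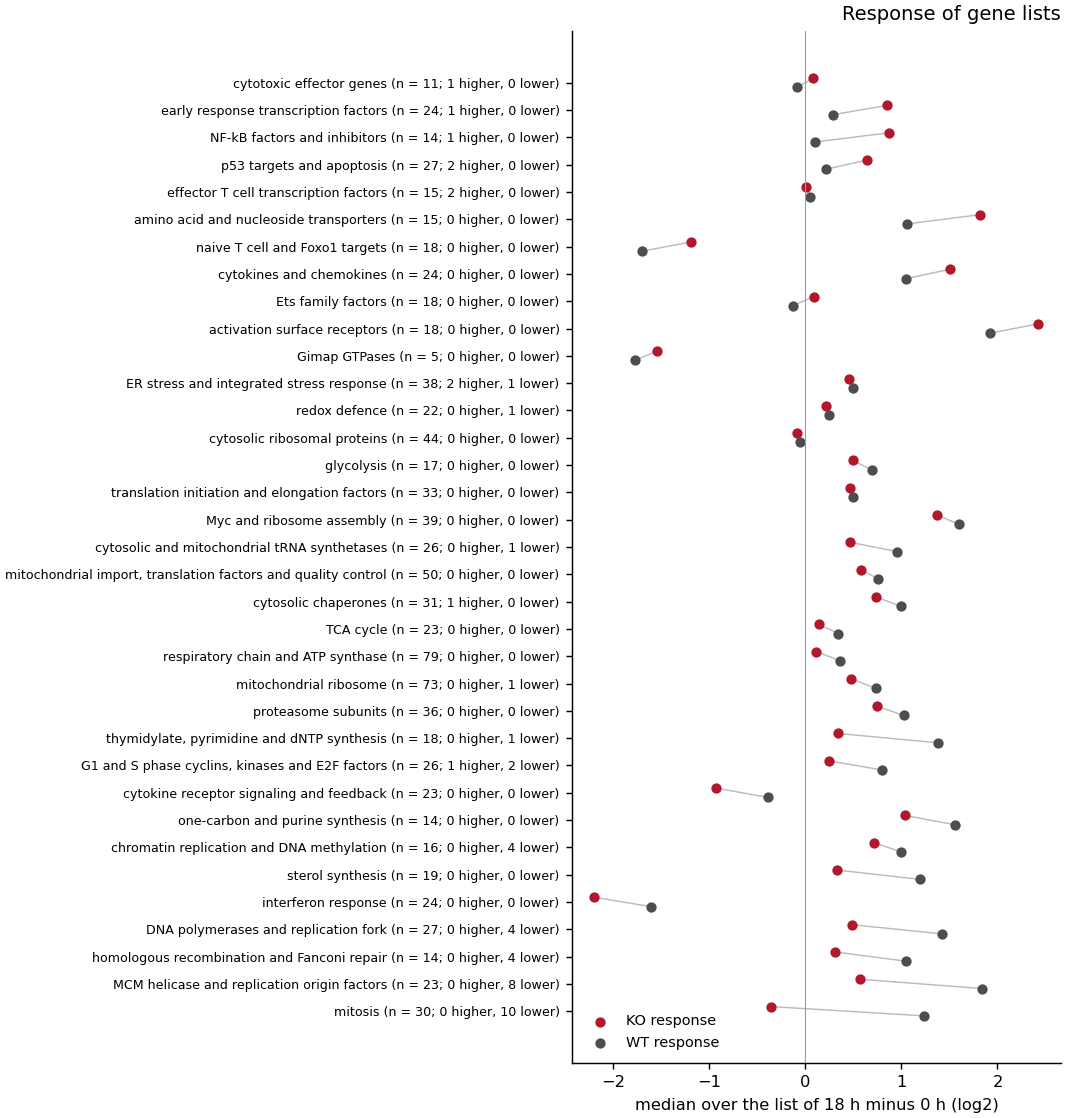
Median response (18 h minus 0 h, log2) of each gene list in KO cells (red, upper point) and WT cells (gray, lower point), ordered by the median response difference, with the list size and the number of members called in each direction. The mitosis list lies at the bottom, with medians of -0.36 in KO cells and 1.23 in WT cells, next to the MCM and origin list with 0.57 and 1.84.

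The study names 32 genes with a probe set here, of which 3 had a lower response (Lig1, Mcm3 and Pola1) and 3 a higher one (Ddit3, Pdia5 and Blcap). Of all genes, these shares were 0.888% and 0.524%. The study called genes by KO against WT at 0 h, 18 h or both, which is a different measure from the response difference. Ccz1, for example, had KO minus WT values of -3.012 at 0 h and -3.545 at 18 h, both called. Its response difference of -0.533 was not called. The study chose these genes with these samples in view, so their count is not independent evidence of a direction. The median response difference of the 32 was -0.64.

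The same contrast in CD8+ T cells, on arrays that share no sample with the CD4+ ones, gave 33 calls (0.266% of genes), 5 higher (0.0403%) and 28 lower (0.226%). That count rests on single arrays: with 1 array left out it ran from 2 (without CD8+ KO replicate 1 at 0 h or WT replicate 2 at 18 h) to 271 (without CD8+ KO replicate 1 at 18 h) and was 12 and 3 without CD8+ WT replicate 1 and 2 at 0 h, 8 without CD8+ KO replicate 2 at 0 h and 126 without CD8+ WT replicate 1 at 18 h. It was 7 to 19 without 1 CD4+ array and 6 without both CD4+ WT replicate 1 arrays, so the overlap below holds for the full set of arrays. Of the 175 genes called in CD4+ cells, 25 were called in CD8+ cells in the same direction, which is 14.3% of the CD4+ calls and 75.8% of the CD8+ calls. Among the 110 genes of lower response in CD4+ cells, 106 also had a negative estimate in CD8+ cells, where 43.9% of all genes did, and their medians were -1.91 in CD4+ cells and -1.22 in CD8+ cells. Among the 65 of higher response, 61 had a positive estimate in CD8+ cells, where 56.0% of all genes did, and their medians were 1.71 in CD4+ cells and 0.69 in CD8+ cells. Because the genes were chosen for their size in CD4+ cells, the smaller CD8+ medians are not a finding.

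Division genes were among those called in both lineages. Trip13 had -4.41 ± 0.45 in CD4+ cells and -3.13 ± 0.45 in CD8+ cells (adjusted p = 0.0229, limma), Cdk1 had -2.86 ± 0.40 and -3.21 ± 0.40 (adjusted p = 0.00897), and Mcm3 had -2.24 ± 0.29 and -1.75 ± 0.29 (adjusted p = 0.0356). The medians of the MCM and origin list and of the mitosis list in CD8+ cells were -1.08 and -1.24. Of the genes of higher response, Rgs16, Cdkn1a and Ahnak were called in both, Rgs16 with 2.78 ± 0.31 in CD4+ cells and 2.62 ± 0.31 in CD8+ cells (adjusted p = 0.0068, limma).

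Stc1, Zeb2 and Il1a had 4.42 ± 0.58, 3.74 ± 0.45 and 3.71 ± 0.29 in CD4+ cells, against 0.66 ± 0.58, 0.61 ± 0.45 and 1.05 ± 0.29 in CD8+ cells. Among genes of lower response, Ifitm2 had -2.842 ± 0.395 in CD4+ cells and 0.317 ± 0.395 in CD8+ cells. The test of the CD4+ response difference against the CD8+ one called 0 of 12393 genes (0.0%), with a smallest adjusted p of 0.295 and 352 genes at an unadjusted p under 0.05 (limma), so no gene can be named as altered in CD4+ cells alone. The median SE of that comparison was 0.41, and 1 CD8+ KO array at 18 h (replicate 2) stood apart with a 3′ minus 5′ signal of 3.76. Without that array the test called 1 gene, without CD8+ KO replicate 1 at 18 h it called 4, and without CD4+ KO replicate 2 at 18 h it called 1.

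**Figure D5:**
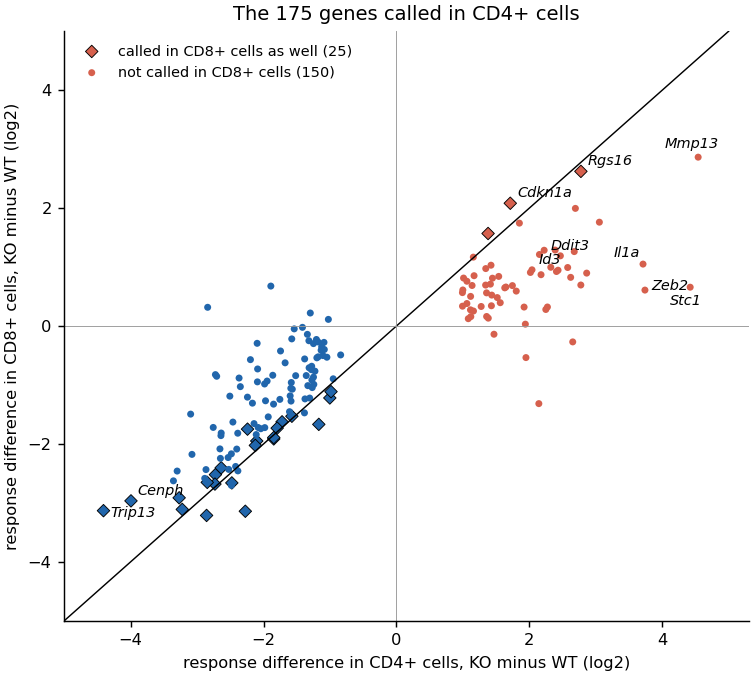
Response difference (KO minus WT, log2) in CD8+ cells (vertical axis) against that in CD4+ cells (horizontal axis) for the 175 genes called in CD4+ cells, in red where the CD4+ response was higher and in blue where it was lower, with diamonds for the 25 called in CD8+ cells too and a line of equality. On the CD8+ axis 106 of 110 blue points lie below 0 and 61 of 65 red points above 0, while Stc1, Zeb2 and Il1a lie far to the right of it.

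Genes that WT CD8+ cells raised served as an activation set chosen on other arrays. For the 1016 genes called up in WT CD8+ cells (8.2% of genes), the median CD4+ response was 0.98 in KO cells and 1.34 in WT cells, with 65 of lower and 9 of higher response in CD4+ cells, where 0.888% and 0.524% of all genes were called. For the 868 called down in WT CD8+ cells (7.0%), the median CD4+ response was -1.21 in KO cells and -1.39 in WT cells, with 4 of lower and 15 of higher response.

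Markers of other cells were read beside these results, where 1.41% of all genes were called. Of 13 B cell markers 1 was called, Ighm, whose response was lower by 1.30 in KO cells on the probe set used, with its 11 probe sets ranging from -1.30 to 0.74. The summed B cell level, the log2 of the sum of linear signals over the list, was 11.85 and 11.79 at 0 h and 9.91 and 9.48 at 18 h in KO cells, against 12.07 and 11.87 at 0 h and 10.88 and 10.66 at 18 h in WT cells. The sum was lower in KO arrays at both times and more so at 18 h, and most of it was Ighm, at 11.56 and 11.66 at 0 h and 9.33 and 8.84 at 18 h in KO cells, against 11.78 and 11.75 at 0 h and 10.64 and 10.44 at 18 h in WT cells. Of the 13 B cell markers 6 had an estimate below 0, and their median response difference was 0.17, with 0.34 for Cd74 and 0.28 for H2-Aa, genes of antigen presentation. Of 15 memory and effector T-cell markers, Cxcr3, a chemokine receptor, and Ahnak had higher responses of 2.14 ± 0.46 and 1.38 ± 0.27, each with lower KO than WT levels at 0 h. The call of Cxcr3 was lost in 12 of the 16 runs with 1 array left out and that of Ahnak in 6, with adjusted p up to 0.182 and 0.141 (limma), and the CD8+ estimate of Cxcr3 was -1.32. Their summed level was 11.07 and 10.63 at 0 h and 11.44 and 11.05 at 18 h in KO cells, against 11.95 and 11.24 at 0 h and 11.59 and 11.31 at 18 h in WT cells.

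Natural killer cell markers, with 0 of 8 called, moved with the replicate number. Their summed level was 9.68 and 8.77 at 0 h and 7.99 and 6.87 at 18 h in KO cells, against 10.05 and 8.49 at 0 h and 7.91 and 6.98 at 18 h in WT cells, so replicate 1 was higher in each group. Replicate 1 was also higher in each group for the B cell sum and for the memory and effector sum given above. Of 9 CD8 lineage, 16 myeloid, 7 regulatory T-cell, 7 thymocyte and 6 erythroid and platelet markers, 0 were called. The part of these cells in the response difference was not tested, and the values without the WT replicate 1 arrays, which read highest for Cd8a, follow.

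How many genes were called depended strongly on single arrays. Genes chosen for large estimates on these arrays can hardly change sign when some are left out, so the kept signs below are not evidence of stability. With 1 of the 16 arrays left out, 40 to 266 genes were called: 54 and 64 without WT replicate 1 and 2 at 0 h, 40 and 59 without KO replicate 1 and 2 at 0 h, 46 and 103 without WT replicate 1 and 2 at 18 h, and 96 and 44 without KO replicate 1 and 2 at 18 h. Without the CD8+ KO replicate 1 or replicate 2 array at 18 h the count was 266. Of the 175 calls, 34 (15 higher and 19 lower) held in all 16 runs, as many as in the 8 runs without a CD4+ array, and each of the 175 kept its sign in each run. Among the called genes named here, the adjusted p in these runs reached 0.236 (Dna2 and Egr2, limma). Without both WT replicate 1 arrays, which leaves 1 WT array at each time whose spread is assumed to be that of the other groups, 7 genes were called, 6 of them among the 175 (Trip13, Cenph, Il1a, Parp8, Rgs16 and Smim3), and all 175 kept their sign. Without the same arrays the WT response had 1899 calls (878 rose and 1021 fell), against 3249 with all arrays, and the KO response 2954. The MCM and origin, polymerase and fork, chromatin copying, mitosis and repair lists then held 0 calls, with median response differences of -1.23, -0.98, -0.66, -1.09 and -0.92.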

How the data were processed

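Per the labels, RNA of sorted naive T cells was amplified in 2 rounds and hybridised to Affymetrix mouse arrays, 1 array per sample. The authors processed the scans with the R packages affy and limma (versions not given in the sources used here), and the deposited values are log2 signals per probe set, normalized between arrays, which ran from 1.62 to 14.45. Scanner files were not used here, so the summary method and detection calls are unknown, and low signals have no detection limit.

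Of 22690 probe sets, 64 controls were left out, 20380 map to 1 gene symbol, 691 to several and 1555 to none in the platform annotation, and 20351 probe sets were matched to RefSeq symbols. The 12393 genes were each read from 1 probe set, as the report states, and 4956 of them had more than 1. Genes were named by a rule: the 15 lowest and 15 highest called response differences, up to 4 called and 2 uncalled genes a list, the 3 largest of each response pattern, GABP subunits and genes the study names. Mcm4, Mcm6, Mcm7, Gmnn, Top2a, Birc5, Cdc20, Cenpf, Nuf2, Nfs1, Rala, Gstp1, Spry2, Atf4, Trib3 and Myc fall outside it and were chosen after their values were seen. The comparison, its members and the gene lists were chosen with earlier results of these data known.

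All 8 groups (16 arrays, 2 a group) were fitted in 1 model with limma 3.58.1 (lmFit and eBayes) in R 4.3.3, the response difference being a contrast of the 4 CD4+ group means. P-values were adjusted by Benjamini-Hochberg over all genes, and a call needed an adjusted p under 0.05 and a fold over 1.5. Errors are SE of the fit. The script was tested on simulated data. The number of arrays limits the precision, and no depth applies. Alternatives were the CD4+ arrays alone, replicate blocks, median centring, quantile normalization, a signal filter, the mean of probe sets, array weights, a trended robust prior, a 3′ to 5′ covariate, a test against the fold itself, and leaving out arrays. Tables were made with Python 3.11.15 and pandas 2.3.3. Promoter sequences are from RefSeq.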

Additional observations from a re-analysis of the deposited data

How the results depend on the processing

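Counts of genes called for the CD4+ response difference, given as all, higher and lower, were 175, 65 and 110. With a replicate block, by number within each lineage, they were 350, 119 and 231, and with a block for each sort 296, 106 and 190. The labels do not say that a number marks a shared sort, and with 2 numbers pairing is not established: the replicate 2 minus replicate 1 differences of the CD4+ groups correlated with r of 0.264 to 0.45 over genes, those of the CD8+ groups with 0.182 to 0.559, and those of CD4+ with CD8+ groups with -0.602 to -0.122. With the 3′ to 5′ signal as a covariate the counts were 356, 124 and 232, leaving out the 3 arrays with the greatest such signal 134, 41 and 93, without both WT replicate 1 arrays 7, 5 and 2, and tested against the 1.5-fold change itself 26, 13 and 13. Leaving out 1 array gave 40 to 266 called, 17 to 97 higher and 21 to 169 lower. The comparison of CD4+ with CD8+ cells gave 0 to 4 calls over these runs, and 0 without both WT replicate 1 arrays. The cause was not tested, except that leaving out arrays leaves fewer samples. The other alternatives stayed within 1.5 times the count, from 137 (mean of probe sets) to 260 (array weights), with 162 for leaving out CD8+ KO replicate 2 at 18 h together with WT replicate 1 at 0 h, chosen after seeing the data. None of the 75 named called genes changed sign under any alternative that tested it, which their choice by large estimates on the same arrays makes likely.

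Signals near the bottom of the scale, such as those of Mmp13, Il1a and Cd70 outside KO cells at 18 h, have no background estimate, so how far the floor of the array compresses their fold changes is unknown.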

Other observations

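Il3, a cytokine of activated T cells, was called for the response difference when both WT replicate 1 arrays were left out and not with all arrays, and was picked out here after its values were seen.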
